A study of Mus musculus with 12 samples.

Results

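The nuclear-encoded genes of the respiratory chain and of ATP synthase were followed over the day in the mouse prefrontal cortex. The members are the genes whose annotated symbol names a subunit or isoform of complex I (Ndufa, Ndufb, Ndufc, Ndufs and Ndufv genes), complex II (Sdha to Sdhd), complex III (Uqcr genes and Cyc1), complex IV (Cox4 to Cox8 genes) or complex V (Atp5 genes), taken from probe sets that carry 1 symbol. There were 82 such genes among the 18193 genes with a probe set of 1 symbol on the array: 35 of complex I, 4 of complex II, 9 of complex III, 17 of complex IV and 17 of complex V. For every gene the brightest of its probe sets, by mean log2 intensity across all arrays and so without regard to time of day, was used, and 165 probe sets carry these 82 symbols in all.

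The tissue was the prefrontal cortex of C57BL/6J mice, dissected after the olfactory bulb was removed. It comprised the most anterior cortex and a coronal section in front of the optic chiasm, from which subcortical structures had been taken away. The mice were bought at 10 weeks of age and kept on 12 hours of light and 12 hours of dark. Tissue was collected at 4 Zeitgeber times (ZT, hours after lights on): ZT3 and ZT9 in the light, ZT15 and ZT21 in the dark under red light. Each time point had 3 mice and each array held the RNA of 1 mouse, with no treatment and no genetic change in any group.

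The respiratory chain of the inner mitochondrial membrane passes electrons from NADH (complex I) and succinate (complex II) through complex III and cytochrome c to oxygen (complex IV), and complexes I, III and IV pump protons on the way. Complex V, ATP synthase, lets the protons flow back through its membrane part (Fo) and makes ATP in its F1 head, and neurons draw most of their ATP from it to restore ion gradients after firing. Complexes I, III, IV and V join subunits from the nuclear genome, the members here, with a few made from mitochondrial DNA, whereas all subunits of complex II are nuclear. Nuclear respiratory factor 1 (NRF1), whose site includes GCGCANGCG, is a known activator of many of these genes.

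That site was found in some of the promoters, and the choice of genes did not use it. RefSeq promoters (250 bases before to 50 after each annotated start site, build GRCm38.p6) were matched to 66 of the 82 members, and 18 of these (27.3%) held GCGCANGCG on either strand, against 7.03% of 27025 genes with a promoter in the same set. The 27025 were not limited to genes bright enough to be tested here. The 18 comprised 6 genes of complex I, 2 of complex II, 2 of complex III, 1 of complex IV and 7 of complex V. The following windows, 1 for each of complexes I, II, IV and V and all upstream of the start site, are printed to show how the site sits in these promoters. Capitals mark the match, and overlapping matches run together.
Ndufs5, chr4:123718246-123718314, minus strand: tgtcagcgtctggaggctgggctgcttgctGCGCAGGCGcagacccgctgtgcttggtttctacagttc
Sdha, chr13:74350300-74350368, minus strand: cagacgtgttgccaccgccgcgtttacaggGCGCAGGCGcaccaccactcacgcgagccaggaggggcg
Cox6a1, chr5:115349037-115349150, minus strand: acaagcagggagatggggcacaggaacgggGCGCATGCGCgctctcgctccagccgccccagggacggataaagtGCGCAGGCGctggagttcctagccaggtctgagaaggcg
Atp5h, chr11:115420022-115420090, minus strand: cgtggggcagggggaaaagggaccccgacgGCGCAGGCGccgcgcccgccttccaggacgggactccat

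Cox6a1, the ubiquitous isoform of a complex IV subunit, had 3 matches, and the 2 groups of them visible in its window are separated by unmatched bases. The site of the factor YY1, AAGATGGCG, was found in 6 of the 66 promoters (9.09%) against 1.64% of all genes, and the ERR site, TCAAGGTCA, in 2 (3.03%) against 0.466%. The ETS site, CCGGAAGT, was found in 5 (7.58%) against 4.31%. The E-box CACGTG, which the clock proteins CLOCK and BMAL1 can bind, was found in 9.09% of the members' promoters and in 8.09% of all. CCAAT (42.4% and 41.1%) and TATAAA (12.1% and 15.7%) were likewise counted on both strands. These matches are descriptions of the letters in the windows and were tied to no binding data. The 17 tested members with the NRF1 site had a median difference between ZT21 and ZT3 of 0.20 on the log2 scale, and the 46 matched, tested members without it had one of 0.24.

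Of the 82 members, 78 lay among the probe sets bright enough to be tested, with mean log2 intensities between 5.06 and 13.69. Those left out were Cox4i2 (mean log2 intensity 4.42), the form of subunit IV known from lung, the testis form Cox7b2 (3.07), the heart and muscle form Cox8b (3.55), and Ndufb4 (2.69), an accessory subunit of complex I. Ndufb4 is also covered by probe sets that it shares with its close copies Ndufb4b and Ndufb4c, at mean log2 intensities of 11.83 and 11.51, and these did not pass the test over time (adjusted p = 0.603 and 0.624 from limma). The low probe set is thus a statement about that probe set, not about the transcript. The tissue forms that were tested were Cox6a2 at 7.16, Cox7a1 at 5.44, Cox6b2 at 5.06 and Cox8c at 6.29, and the paralog Ndufa4l2, known for its induction in low oxygen, stood at 5.37. No detection calls were used here, so whether these low values lie above background is unknown.

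No transcript of the respiratory chain or ATP synthase passed the test for a change over the 4 time points. In the moderated F-test of limma, 0 of 78 tested members had an adjusted p under 0.20, where 1.93% of all tested probe sets did. At an unadjusted p under 0.05 there were 4 members (5.13%), against 15.5% of all tested probe sets. These 4 were Ndufb6, an accessory subunit of complex I (adjusted p = 0.292), Cox5a of complex IV (0.294), cytochrome c1, Cyc1 (0.299), and the core protein Uqcrc2 of complex III (0.311). The multiclass SAM statistic with 100 permutations and the F statistic without moderation also called 0 members, while they called 130 and 79 of all tested probe sets. The count rested on single arrays: it became 6 (7.69%) without ZT9 replicate 1 (Cox5a, Cox5b, Cyc1, Ndufb6, Ndufc1 and Uqcrc2), 2 (2.56%) without ZT9 replicate 3 and 2 without ZT21 replicate 3. In the same fits 12.3%, 6.08% and 11.7% of all tested probe sets passed, a larger share than of the members each time.

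Below that threshold the members were low at ZT3 and high at ZT21. A sign of RNA quality, the log2 ratio of the 3′ to the 5′ probe set of the beta actin control, was also lower in all 3 arrays at ZT3 (0.66 to 0.70) than in all 3 at ZT21 (0.79 to 0.88). With this ratio as a covariate, the median of the members for ZT3 minus ZT21 was -0.04 in place of -0.20. Without the 3 arrays of highest ratio it was -0.21. As the ratio did not overlap between ZT3 and ZT21, the covariate fit cannot tell the ratio from time of day. The mean was lowest at ZT3 for 54 of 78 members (69.2%, against 39.0% of all tested probe sets) and highest at ZT21 for 53 (67.9%, against 24.7%). Of the members 70 had a mean log2 intensity of at least 10, and among the 3718 tested probe sets that bright, 52.0% were lowest at ZT3 and 25.3% highest at ZT21. Another 13 members were highest at ZT9, 9 at ZT15 and 3 at ZT3. The median member stood 0.11 above ZT3 at ZT9, differed by 0.0095 from ZT9 to ZT15 and by 0.08 from ZT15 to ZT21, and was lower by 0.20 at ZT3 than at ZT21. The same medians over all tested probe sets were 0.06, -0.0093, -0.02 and -0.02, and over the bright ones 0.12, -0.02, -0.06 and -0.05. From ZT3 to ZT9 the bright probe sets thus differed about as much as the members, and the 70 bright members had a median of 0.11. Of the bright probe sets 82.1% were higher at ZT9, against 84.3% of the 70 bright members and 79.5% of all members. Between dark (ZT15 and ZT21) and light (ZT3 and ZT9) the median member differed by 0.11 and the median probe set by 0.0061 (0.02 among bright ones). In the dark 68 of 78 members (87.2%) were higher, against 51.9% of all tested probe sets and 55.3% of the bright ones. At ZT21 68 members (87.2%) were higher than at ZT3, against 54.0% and 58.8%. These shares are the background for the counts by complex and by list below. The medians are differences of log2 intensity, and the median standard error of a member's own dark minus light difference was 0.10. Leaving out 1 array put the dark minus light median between 0.05 (without ZT9 replicate 3) and 0.17 (without ZT9 replicate 1), and the actin covariate put it at 0.05. Without the 3 arrays of highest ratio it was 0.14. The median from ZT3 to ZT9 lay between -0.01 (without ZT9 replicate 1) and 0.25 (without ZT9 replicate 3), with 0.05 without ZT3 replicate 2 and 0.20 without ZT3 replicate 1, and that from ZT9 to ZT15 between -0.12 (without ZT9 replicate 3) and 0.12 (without ZT9 replicate 1). The median from ZT15 to ZT21 was 0.02 without ZT21 replicate 2, 0.13 without ZT21 replicate 1 or ZT15 replicate 3, and -0.02 with the actin covariate. Without the 3 arrays of highest ratio it was 0.11.

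**Figure D1:**
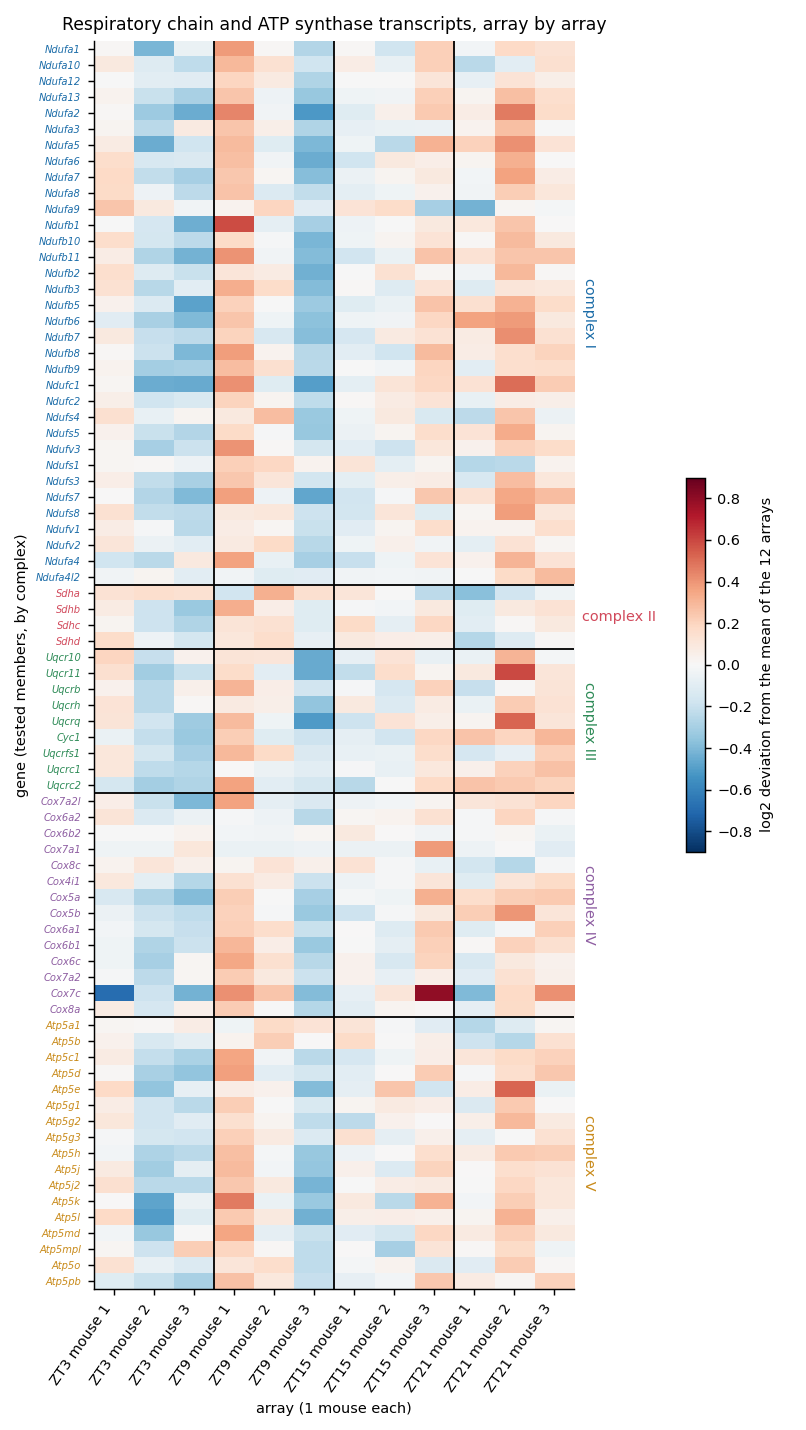
Deviation of each of the 78 tested members (rows, grouped by complex) from its own mean over the 12 arrays (columns, 1 mouse each), as log2 intensity in colour. Columns that are red or blue almost throughout, such as ZT9 replicates 1 and 3 (labelled mouse 1 and 3), show members moving together from mouse to mouse, whereas Sdha, Ndufs1, Atp5a1 and Atp5b depart from their columns.

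The step across lights on, from ZT21 to ZT3, held most of the nominal differences. At an unadjusted p under 0.05, 16 of 78 members (20.5%, background 11.7%) were lower at ZT3 than at ZT21 and 2 were higher (2.56%, background 7.57%), and 0 passed at an adjusted p under 0.05 from limma in either direction (0.0163% and 0.00407% of all). For dark against light, 5 members were higher (6.41%, background 8.76%) and 1 lower (1.28%, background 6.58%) at an unadjusted p under 0.05, and 0 passed the adjusted threshold (0.0937% and 0% of all). The other steps held 0 members at either threshold in either direction. At an unadjusted p under 0.05 the background from ZT3 to ZT9 was 8.91% higher and 2.62% lower, from ZT9 to ZT15 3.75% and 3.44%, and from ZT15 to ZT21 3.29% and 6.39%. After adjustment it was 0.0407% and 0.00407%, 0.118% and 0.00815%, and 0% and 0.0122%. The step within the light (ZT3 to ZT9) was also set against the step within the dark (ZT15 to ZT21) in the same fit, and their difference reached an unadjusted p under 0.05 in 1 member (1.28%, background 10.8%) and an adjusted p under 0.05 in 0 members (background 0.0244%). All 3 mice at ZT21 lay above all 3 at ZT3 for 20 members (25.6%, background 18.0%), and below them for 2 members, Sdha and Cox8c (2.56%, background 10.8%). All 6 dark values lay above all 6 light values for 0 members, against 0.473% of all tested probe sets.

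Complex I takes electrons from NADH. Of its 34 tested members, 26 had their lowest mean at ZT3 and 27 their highest at ZT21, and the median difference between ZT21 and ZT3 was 0.25 on the log2 scale. For ZT3 minus ZT21 this median was -0.05 with the actin covariate in place of -0.25. Without the 3 arrays of highest actin ratio it was -0.23. Among the 26 tested accessory subunits, which surround the catalytic core, 24 were higher at ZT21 than at ZT3, by a median of 0.25. Among the 6 tested core subunits, some of which carry the flavin or iron-sulfur clusters, 5 were higher, and the median of the 6 was 0.18.

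Ndufb6, an accessory subunit of the membrane arm, had the smallest F-test p of all members. Its log2 intensities were 11.90, 11.72 and 11.61 at ZT3, 12.25, 11.97 and 11.63 at ZT9, 11.96, 11.97 and 12.19 at ZT15, and 12.37, 12.39 and 12.09 at ZT21. The 3 values at ZT21 lay above those at ZT3, while ZT9 spanned most of the range. It was higher at ZT21 than at ZT3 by 0.54 (standard error 0.15, a 1.46-fold level, adjusted p = 0.153 from limma), and higher in the dark by 0.32 (standard error 0.11, adjusted p = 0.233 from limma). A second probe set of Ndufb6, at a mean log2 intensity of 11.50, differed between ZT21 and ZT3 by only 0.11.

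Ndufc1, another small membrane subunit, had the largest difference of any member between ZT21 and ZT3. The mice measured 11.61, 11.14 and 11.14 at ZT3, 12.003, 11.48 and 11.09 at ZT9, 11.50, 11.71 and 11.78 at ZT15, and 11.72, 12.09 and 11.82 at ZT21. ZT9 held the lowest value of all mice, and its highest was exceeded only by ZT21 replicate 2. The difference of 0.58 (standard error 0.21, a 1.5-fold level) had an adjusted p of 0.186 from limma, and the second probe set of the gene gave 0.15. Ndufs7, a core subunit with an iron-sulfur cluster, was higher at ZT21 by 0.47, and Ndufa2, Ndufa5, Ndufb5 and Ndufb11 were higher by 0.39 to 0.49. Each had 3 values at ZT21 above the 3 at ZT3, and none had an adjusted p under 0.20 in the F-test. Second probe sets gave only 0.16 for Ndufs7, 0.06 for Ndufa5 and 0.13 for Ndufb5, and further ones of Ndufb11 gave 0.25 and 0.37.

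Ndufs1, the largest core subunit, ran the other way. Its log2 intensities were 10.81, 10.80 and 10.75 at ZT3, 11.01, 10.98 and 10.83 at ZT9, 10.91, 10.70 and 10.82 at ZT15, and 10.54, 10.55 and 10.83 at ZT21. ZT21 replicates 1 and 2 held the lowest values of the gene, and replicate 3 lay within the range of the light values. The difference between ZT21 and ZT3 was -0.15 (adjusted p = 0.442 from limma). Ndufa9, an accessory subunit that binds a nucleotide cofactor, was lowest in ZT21 replicate 1, at 10.49, and its difference was -0.24 (standard error 0.16, adjusted p = 0.410 from limma). Ndufb9, with a mean log2 intensity of 12.62, was 0.26 higher at ZT21, and Ndufa4, named for complex I and later placed in complex IV, 0.27 higher, with overlapping mice in either case. The dim paralog Ndufa4l2 ranged from 5.26 to 5.40 at the other time points and measured 5.37, 5.54 and 5.66 at ZT21.

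Complex II, succinate dehydrogenase, feeds electrons from the tricarboxylic acid cycle and was the complex in which 0 members had their highest mean at ZT21. Its median difference between ZT21 and ZT3 was 0.02 and between dark and light 0.0019, over 4 genes. Neither direction was stable: for dark minus light the median was -0.04 without ZT9 replicate 3 and with the actin covariate, and for ZT3 minus ZT21 it ran from -0.10 to 0.05 on leaving out 1 array and was 0.07 with the covariate. Without the 3 arrays of highest actin ratio, the ZT3 minus ZT21 median was 0.04. Whether complex II differed from the others was not tested, since members are not replicates. Sdha, the flavoprotein that oxidizes succinate, measured 11.98, 12.004 and 11.99 at ZT3, 11.68, 12.17 and 11.995 at ZT9, 11.96, 11.85 and 11.62 at ZT15, and 11.48, 11.68 and 11.82 at ZT21. The ZT3 mice were nearly equal, and all 3 ZT21 mice lay below them. Sdha was lower at ZT21 than at ZT3 (difference -0.33, standard error 0.14, adjusted p = 0.221 from limma) and lower in the dark (difference -0.24, standard error 0.10, adjusted p = 0.285 from limma). A second bright probe set of Sdha, at 11.80, gave -0.11 between ZT21 and ZT3.

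The iron-sulfur subunit Sdhb was 0.19 higher at ZT21 than at ZT3 and peaked at ZT9. The membrane anchors Sdhc and Sdhd peaked at ZT15 and differed between ZT21 and ZT3 by 0.15 and -0.11. In each of these anchors a second probe set gave the opposite sign, -0.08 for Sdhc and 0.13 for Sdhd, so their direction depended on the probe set. The smallest F-test adjusted p in complex II was 0.398, that of Sdha.

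**Figure D2:**
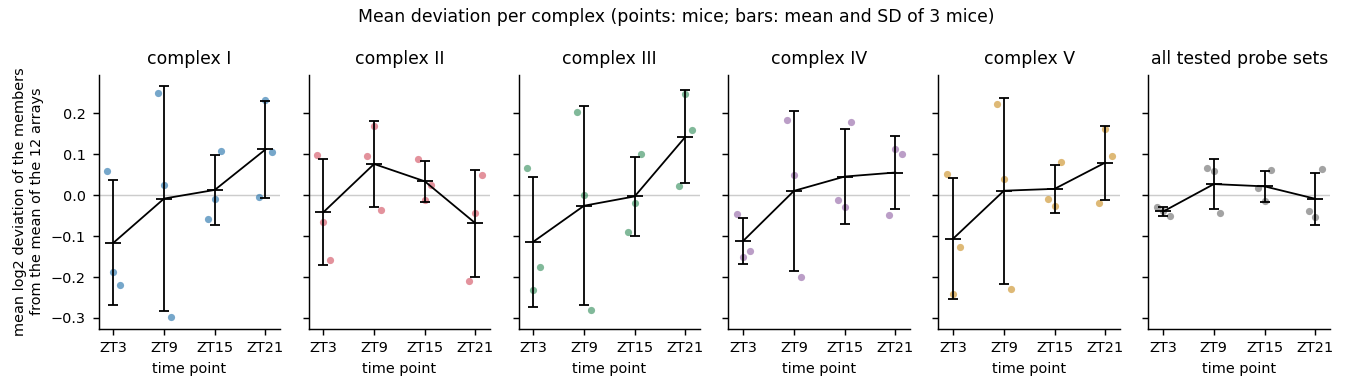
Mean log2 deviation of the tested members of each complex from their mean over 12 arrays (vertical axis) at the 4 time points (horizontal axis), with all tested probe sets at the right. Points are mice and bars the mean and SD of 3 mice; complexes I, III, IV and V are lowest at ZT3 and highest at ZT21, complex II is lowest at ZT21, and the ZT9 mice of complex I run from -0.30 to 0.25.

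Complex III hands electrons from ubiquinol to cytochrome c. Its 9 tested members had the largest median difference of the 5 complexes between ZT21 and ZT3, 0.30, and all 9 were higher at ZT21. For ZT3 minus ZT21 this median, -0.30, was -0.19 without ZT21 replicate 2 and -0.15 with the actin covariate. Without the 3 arrays of highest actin ratio it was -0.26. Cyc1 measured 11.51, 11.35 and 11.23 at ZT3, 11.78, 11.45 and 11.37 at ZT9, 11.48, 11.39 and 11.75 at ZT15, and 11.82, 11.75 and 11.86 at ZT21. The ZT21 values were close together and above those of ZT3, and 1 mouse of ZT9 reached them. The difference was 0.45 (standard error 0.13, 1.37-fold, adjusted p = 0.153 from limma).

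Uqcrc2, a core protein of the complex, gave 12.30, 12.16 and 12.19 at ZT3, 12.82, 12.37 and 12.30 at ZT9, 12.21, 12.46 and 12.64 at ZT15, and 12.72, 12.70 and 12.66 at ZT21. The highest value belonged to ZT9 replicate 1. Between ZT21 and ZT3 the gene differed by 0.48 (standard error 0.14, 1.39-fold, adjusted p = 0.155 from limma), but its second probe set, at a mean of 10.53, differed by -0.04. Uqcrc1, the partner core protein, was 0.30 higher at ZT21 (adjusted p = 0.187 from limma), with 1 ZT3 mouse at 10.80 inside the ZT21 range of 10.75 to 10.97. The Rieske protein Uqcrfs1 was 0.12 higher and peaked at ZT9. Among the 5 accessory subunits the differences ran from 0.03 for Uqcrb and 0.07 for Uqcr10 to 0.39 for Uqcr11, where ZT21 replicate 2 alone reached 10.999 and the other mice at ZT21 were at 10.50 and 10.51.

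Complex IV reduces oxygen to water. All 9 of its tested ubiquitous subunits were higher at ZT21 than at ZT3, by 0.05 to 0.50 and a median of 0.16. Of 4 tested tissue isoforms 3 were lower, but these 4 were dim, at mean log2 intensities of 5.06 to 7.16. Whether such signals lie above background is unknown. The median of the complex for ZT3 minus ZT21, -0.12, was -0.20 without ZT21 replicate 1, -0.08 without ZT21 replicate 2 and -0.0091 with the actin covariate. It was -0.09 without the 3 arrays of highest actin ratio. Cox5a, a subunit bound on the matrix side, measured 12.85, 12.73 and 12.61 at ZT3, 13.22, 12.99 and 12.69 at ZT9, 12.98, 12.96 and 13.32 at ZT15, and 13.16, 13.22 and 13.23 at ZT21. The ZT21 mice were close together and lay above the ZT3 mice. The difference was 0.47 (standard error 0.14, 1.39-fold, adjusted p = 0.153 from limma), and that between dark and light 0.30 (standard error 0.10, adjusted p = 0.227 from limma, the smallest of the members). Other probe sets of Cox5a gave 0.35 and 0.08 between ZT21 and ZT3.

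Cox5b, the zinc-binding subunit, measured 12.71, 12.56 and 12.53 at ZT3 and 12.97, 13.15 and 12.86 at ZT21, a difference of 0.40 (adjusted p = 0.176 from limma), and its 3 other bright probe sets gave 0.22 to 0.30. Cox7a2l, a factor of respiratory supercomplexes, was 0.33 higher at ZT21, and Cox6b1, which faces the intermembrane space, 0.29 higher, each with its 3 ZT21 mice above the ZT3 mice. Further probe sets gave 0.24 and 0.06 for Cox7a2l and 0.17 for Cox6b1. Cox6a1, Cox4i1, Cox7a2 and Cox8a differed by 0.16, 0.14, 0.10 and 0.05. The probe set of Cox7c was dim and scattered, from 5.12 to 6.61, with a difference of 0.50 (standard error 0.28). Cox8c, known from testis, lay between 6.32 and 6.40 at ZT3 and at 6.12, 6.03 and 6.28 at ZT21, a difference of -0.21 (standard error 0.09, adjusted p = 0.249 from limma). Cox6a2, the muscle form, differed by 0.08, and Cox7a1 and Cox6b2 by -0.06 and -0.02 (standard errors 0.10, 0.12 and 0.08).

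Complex V makes ATP. All 12 tested Fo and stalk subunits were higher at ZT21 than at ZT3, by 0.03 to 0.36 and a median of 0.20, and 3 of 5 subunits of the F1 head were higher. The median of the complex for ZT3 minus ZT21, -0.21, was -0.12 without ZT3 replicate 2 and -0.04 with the actin covariate. It was -0.23 without the 3 arrays of highest actin ratio. Atp5h, subunit d of the peripheral stalk, had the largest difference, 0.36 (standard error 0.14, 1.28-fold, adjusted p = 0.205 from limma), from 12.94, 12.68 and 12.72 at ZT3 to 13.04, 13.20 and 13.19 at ZT21. A second probe set of Atp5h gave 0.11. Atp5pb, subunit b of the stalk, was 0.30 higher with a second probe set at 0.0046, and Atp5d, the delta subunit of F1, was 0.34 higher with a second probe set at 0.31. Atp5g2, which encodes the subunit of the rotating ring, was 0.20 higher, with mice that overlapped.

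The subunits that form the catalytic hexamer of F1 had their lowest mean at ZT21. Atp5b, the catalytic beta subunit, measured 13.45, 13.27 and 13.33 at ZT3, 13.45, 13.63 and 13.42 at ZT9, 13.59, 13.41 and 13.47 at ZT15, and 13.23, 13.16 and 13.55 at ZT21. Atp5a1, the alpha subunit, measured 12.43, 12.43 and 12.48 at ZT3, 12.38, 12.59 and 12.53 at ZT9, 12.53, 12.41 and 12.31 at ZT15, and 12.16, 12.30 and 12.43 at ZT21. In Atp5b, ZT21 replicates 1 and 2 were the lowest of the 12 arrays and replicate 3 was among the highest, and in Atp5a1 ZT21 replicate 1 was the lowest. The differences between ZT21 and ZT3, -0.04 and -0.15, were within the spread of the mice (adjusted p = 0.878 and 0.432 from limma), and a second bright probe set of Atp5a1 gave 0.06.

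**Figure D3:**
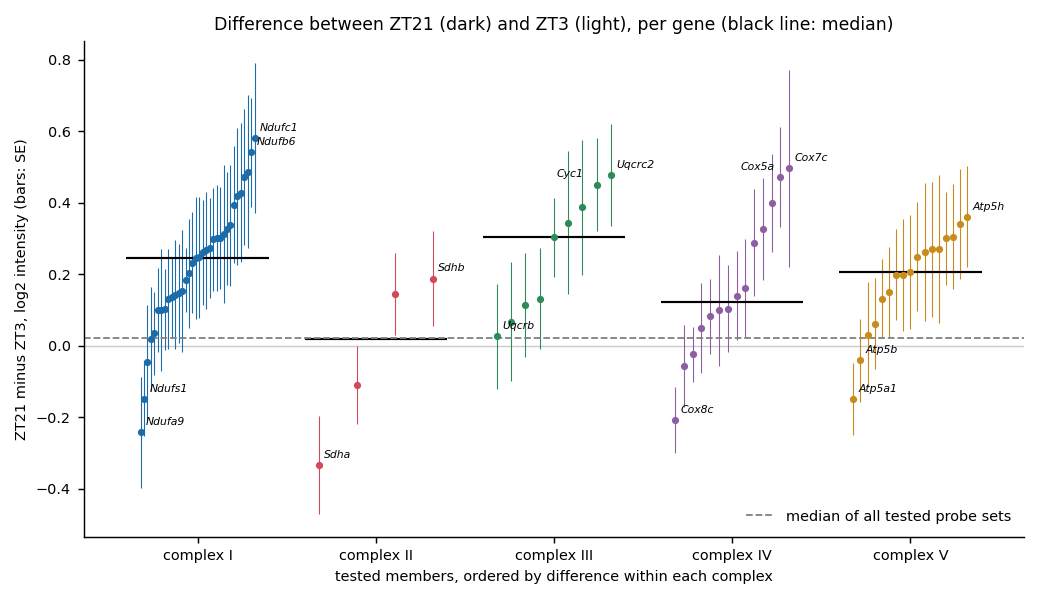
Difference of log2 intensity between ZT21 and ZT3 with its standard error (vertical axis) for each tested member, ordered within its complex (horizontal axis). Black lines are medians of the complexes, from 0.02 for complex II to 0.30 for complex III, and the dashed line is the median of all tested probe sets, 0.02; genes below 0 include Sdha, Ndufa9, Cox8c, Ndufs1 and Atp5a1.

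**Figure D4:**
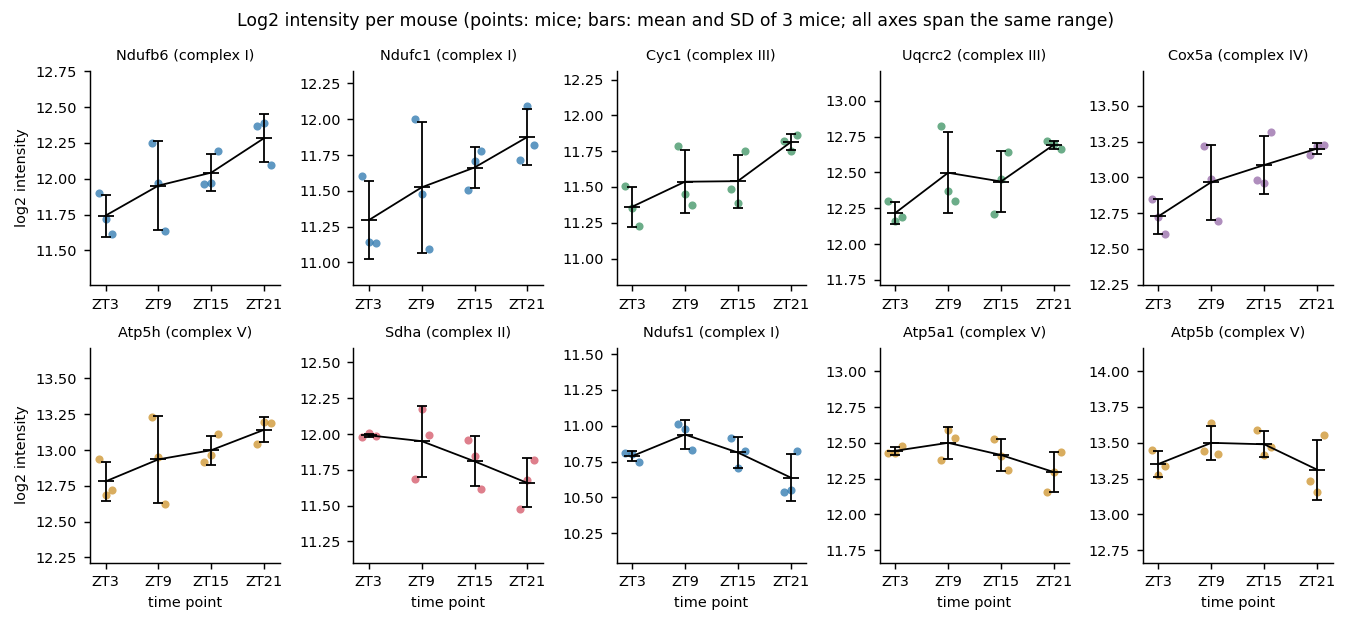
Log2 intensity of 10 members in each mouse (points) at the 4 time points, with mean and SD of 3 mice and the same span on every vertical axis. Ndufb6, Ndufc1, Cyc1, Uqcrc2, Cox5a and Atp5h have their highest mean at ZT21, and Sdha, Ndufs1, Atp5a1 and Atp5b their lowest.

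Other probe sets of the same genes gave a smaller median difference, with exceptions. Of 83 further probe sets of the members 65 were tested, 0 passed the F-test (smallest adjusted p = 0.263 from limma, 1 at an unadjusted p under 0.05), and 52 had the same sign as the chosen probe set between ZT21 and ZT3. The 52 with a mean log2 intensity of at least 9, from 37 genes, had a median difference of 0.17, and the chosen probe sets of these 37 genes had one of 0.25. Of the 52, 34 differed by less than the chosen probe set and 18 by more. Second probe sets that differed by more were found for Atp5o (0.45 against 0.06), Cox6c (0.38 against 0.10), Ndufb9 (0.45 against 0.26), Atp5k (0.49 against 0.27) and Ndufv2 (0.23 against 0.03). With probe sets restricted, where a gene allowed it, to those without a suffix that marks possible matches to several transcripts, the median difference of the members for ZT3 minus ZT21 was -0.15 in place of -0.20. Of 9 further probe sets that carry a member's or a related symbol together with another, 7 were tested, the smallest adjusted p was 0.293, and the brightest sets of Ndufa11, Ndufs6 and Ndufs5 were 0.28, 0.32 and 0.52 higher at ZT21.

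The members moved together from mouse to mouse, and most of their spread lay between mice of the same time point. The mean deviation of the 78 members from their own 12-array means was 0.04, -0.19 and -0.18 at ZT3, 0.22, 0.04 and -0.25 at ZT9, -0.04, -0.02 and 0.11 at ZT15, and -0.02, 0.18 and 0.11 at ZT21. The highest and the lowest of the 12 arrays were both at ZT9. The standard deviation within time points was 0.15, and the 4 time-point means spanned 0.20. Of the spread of this mean, 74.8% lay within time points (68.7% for the mean of all tested probe sets). With 3 mice at each of 4 time points, most of the spread is expected there even without an effect of time. In ZT9 replicate 1, 71 of 78 members stood above their own ZT9 mean, against 56.6% of all tested probe sets, and in ZT9 replicate 3 only 4 did, against 34.0%. At ZT21, 67 members stood above their ZT21 mean in replicate 2 (38.3% of all) and 5 in replicate 1 (40.7% of all). At ZT3, replicate 1 had 71 above its time-point mean (51.4% of all).

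Several measures of the arrays moved with the members, and their part in the results was not tested beyond the values given here. The log2 ratio of the beta actin control was 0.95 in ZT9 replicate 1, 0.88 in ZT21 replicate 3 and 0.84 in ZT15 replicate 3. It was 0.79 in both other arrays at ZT21, 0.69 and 0.70 in the others at ZT9, 0.70 and 0.67 in the others at ZT15, and 0.70, 0.66 and 0.69 at ZT3, so that it separated ZT21 from ZT3 without overlap. The Gapdh control gave 0.31, 0.23 and 0.26 in the same 3 arrays, 0.11 to 0.14 at ZT3, 0.19 and 0.11 in the other arrays at ZT21, and 0.10 to 0.14 in the rest. Without these 3 arrays, the F-test gave 11 members (14.1%) with an adjusted p below 0.20, and 23.8% of all probe sets, and 5 members (6.41%), against 8.03% of all probe sets, differed between ZT3 and ZT21 at an adjusted p under 0.05 from limma, namely Cox5a, Cyc1, Ndufb6 and Uqcrc2, lower at ZT3, and Sdha, higher at ZT3. The median difference between ZT3 and ZT21 was then -0.21. With the actin ratio as a covariate, 0 members passed either test, against 5.18% (F-test) and 0.0122% (ZT3 minus ZT21) of all probe sets, and that median was -0.04. Without those arrays 2 mice remained at each of ZT9, ZT15 and ZT21.

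**Figure D5:**
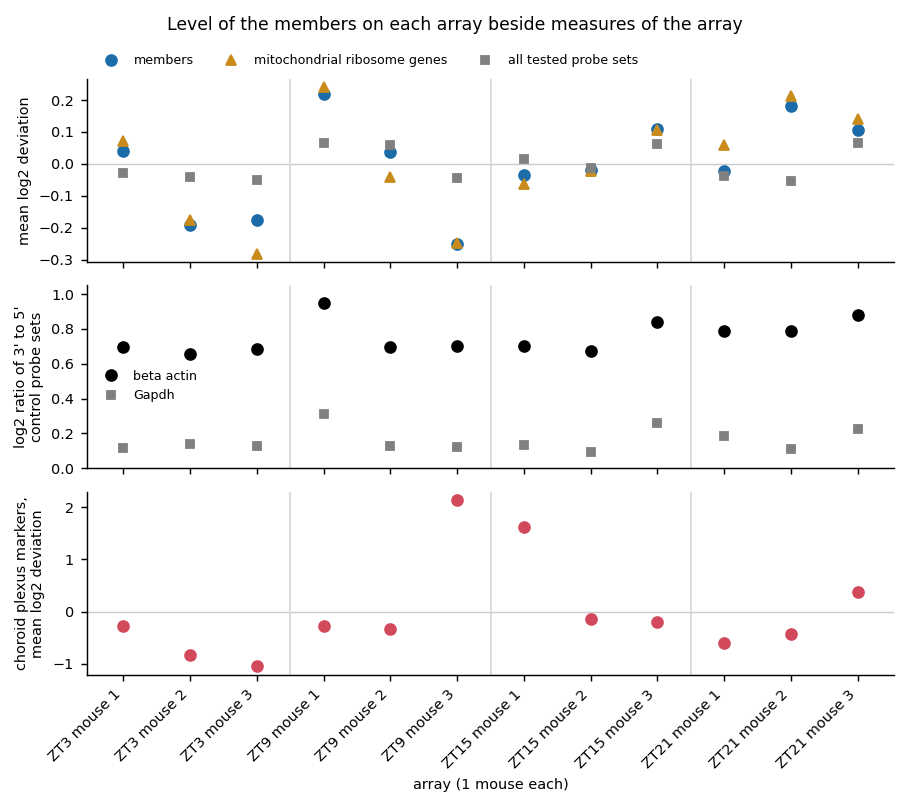
For each of the 12 arrays (horizontal axis), the mean log2 deviation of the members, of mitochondrial ribosome genes and of all tested probe sets (top), the log2 ratios of 3′ to 5′ control probe sets (middle) and the mean log2 deviation of choroid plexus markers (bottom). Members and mitochondrial ribosome genes follow each other array by array, and the actin ratio is highest in ZT9 replicate 1, where the members are highest, while the choroid plexus markers are highest in ZT9 replicate 3, where they are lowest.

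Markers of other cells were present at uneven levels. All 5 choroid plexus markers were on the array and 2 were tested, and the summed intensity of the list ran from 791 to 2129 at ZT3, 1928 to 29569.5 at ZT9, 2381 to 18914 at ZT15 and 1632 to 5575 at ZT21, with the high values in ZT9 replicate 3 and ZT15 replicate 1. Without these 2 arrays, 0 members passed the F-test (1.78% of all probe sets did), and the median differences were -0.20 for ZT3 minus ZT21 and 0.06 for dark minus light. The 7 neuronal markers, of which all were tested, summed to 51982 to 54223 at ZT3 and 47467 to 58615 at ZT21, and 3 of them were higher and 4 lower at ZT21 than at ZT3 (median -0.01), including Stmn2 with a difference of -0.30 (F-test adjusted p = 0.195 from limma). Of 4 endothelial markers 3 were tested and all 3 were higher at ZT21 than at ZT3, by a median of 0.07, and the tight junction gene Cldn5 changed over the day (F-test adjusted p = 0.0602 from limma), with means of 8.97, 8.27, 8.40 and 9.33 from ZT3 to ZT21. The 5 microglial markers were all higher at ZT21 than at ZT3, by a median of 0.16, and summed to 2606 to 2877 at ZT3 and 3193 to 3586 at ZT21. None of the 3 olfactory bulb markers was bright enough to be tested, and of the 5 striatal markers 3 were. Those 3 had their highest mean deviations in the same 2 arrays as the choroid plexus markers, 0.51 in ZT9 replicate 3 and 0.22 in ZT15 replicate 1. The mean deviation of the members was -0.25 in ZT9 replicate 3 and -0.04 in ZT15 replicate 1, and a link was not tested. In such bulk tissue, fewer cells of a type and less RNA per cell cannot be told apart.

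The rest of the mitochondrial pathway was examined through lists of genes with related roles, and in each list 0 genes had an adjusted p below 0.20 in the F-test. Of all tested probe sets 54.0% were higher at ZT21 than at ZT3 (58.8% of bright ones) and 51.9% were higher in the dark (55.3%). The 76 genes of the mitochondrial ribosome, which makes the mitochondrially encoded subunits, came closest to the members: 72 were higher at ZT21 than at ZT3, by a median of 0.26, and 69 were higher in the dark, by a median of 0.14. Their smallest adjusted p was 0.220, that of Mrpl28, which was 0.50 higher at ZT21. Of 11 tested genes for replication and expression of mitochondrial DNA, 8 were higher at ZT21 (median 0.24). Of 15 tested assembly factors of complex I, 11 were higher (median 0.04), and of 29 for complexes II to V, 20 were higher (median 0.12). Sdhaf1, an assembly factor of complex II, was 0.61 higher at ZT21 (adjusted p = 0.227 from limma), and Lrpprc, which stabilizes mitochondrial messenger RNAs, differed by -0.47 (adjusted p = 0.268 from limma).

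Genes that supply the chain with substrate showed smaller medians. Of 16 tested genes of the tricarboxylic acid cycle, 11 were higher at ZT21 than at ZT3 (median 0.07) and 7 were higher in the dark. Here and for the next lists the background at ZT21 was 54.0% of all tested probe sets (58.8% of bright ones). In the dark it was 51.9% (55.3%). Of 10 tested genes of the pyruvate dehydrogenase complex and its regulators, 2 were higher at ZT21 (median -0.11) and 2 in the dark, and the component Pdhx differed by -0.45 (F-test adjusted p = 0.271 from limma). For cytochrome c and coenzyme Q synthesis 11 of 14 were higher at ZT21 (median 0.13), for carriers, porins and the ATPase inhibitor 10 of 13 (median 0.08), and for defence against reactive oxygen 8 of 8 (median 0.11), including Sod1, the cytosolic superoxide dismutase, by 0.56. Among 13 regulators of mitochondrial biogenesis 9 were higher at ZT21 (median 0.08). The coactivator Ppargc1b had a mean of 8.69 at ZT3 and 9.27 at ZT21 (F-test adjusted p = 0.227 from limma). Of the uncoupling genes only 2 were tested, 1 higher and 1 lower at ZT21 (median 0.27). The higher one, Slc25a27, differed by 0.54 (adjusted p = 0.228 from limma).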

How the data were processed

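RNA from the prefrontal cortex of single mice was hybridised to Affymetrix Mouse430_v2 arrays, with 5 µg of total RNA per array. The deposited unit is intensity on a linear scale: the authors computed GCRMA values per probe set in GeneSpring 7 and took detection calls from MAS5, which were not used here. By the methods of the study the replicates are separate mice, and scan dates or batches were not given in the sources used here. Mean intensity per array was 344 to 398, pairs of arrays correlated at 0.970 to 0.994, and the number of arrays limits the precision.

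Values were taken as log2 and 64 controls of the array were left out. The 24546 of 45037 probe sets with the highest mean, down to 4.87, were fitted over all 12 arrays by lmFit and eBayes of limma (version 3.58.1, R 4.3.3), and p-values were adjusted over all of them by the method of Benjamini and Hochberg, at 0.20 for the F-test and 0.05 for contrasts (two-sided). Fits were tested on simulated data. Python 3.11.15 with matplotlib 3.10.9, numpy 2.4.6 and pandas 2.3.3 made the tables and figures.

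The members and gene lists were chosen with earlier results of these data known. Genes were named by a rule: in each complex the brightest and dimmest tested member, those of smallest F-test p and of extreme dark minus light difference, tissue isoforms and untested members, and up to 3 of each list by F-test p. Members with an unadjusted p under 0.05 and those named for other probe sets or promoters were added after their values were seen. Alternatives covered normalization, filters, offset, prior, array weights, the replicate number, the choice of probe set, single arrays and other statistics.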

Additional observations from a re-analysis of the deposited data

How the results depend on the processing

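The count of members past the F-test (0) and past the contrasts (0 each) did not change with each array centred on its median or on its bright probe sets, no filter, the 15000 brightest probe sets, an offset of 16, an intensity trend with a robust prior, the mean over a gene's probe sets, probe sets without an ambiguity suffix, SAM or the F statistic without moderation. The share of all probe sets past the F-test was 5.55% with median centring, 5.27% with centring on bright ones, 0.431% with no filter and 8.87% with the 15000 brightest. It was 1.74% with the offset, 1.69% with the trend and robust prior, and 5.34% for the means of genes. In the fits with a share given here, at most 0.427% passed any contrast. Quantile normalization gave 2 members past the F-test, Cox5a and Cyc1 (adjusted p = 0.175 and 0.177 from limma), with 8.73% of all probe sets. Array weights, which ran from 0.342 for ZT9 replicate 1 to 3.76 for ZT3 replicate 2, gave 36 members past the F-test (59.96% of all probe sets passed), 4 past dark minus light (11.5% of all), 2 past ZT21 minus ZT15 (11.1%) and 26 past ZT3 minus ZT21 (26.4%). Leaving out each array in turn gave 0 to 6 members past the F-test, with 6 without ZT9 replicate 1, 2 without ZT9 replicate 3 and 2 without ZT21 replicate 3, and 0 past every contrast. Chosen after seeing the data, the fit without the 3 arrays of highest actin ratio gave 11 past the F-test (23.8% of all probe sets passed) and 5 past ZT3 minus ZT21 (8.03%). The median of ZT3 minus ZT21 was -0.21 in that fit, and the actin ratio as a covariate moved it from -0.20 to -0.0376. Leaving out 2 arrays with choroid plexus markers left all counts at 0, with 1.78% of all probe sets past the F-test. The causes were not tested.

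With the replicate number as a block, 0 members passed the F-test or any contrast and 91 of all probe sets passed the F-test. Arrays of the same number correlated at -0.50 to 0.49 in their deviations from the time-point means, and 3 of 12 correlated best with an array of their own number, so the numbers were not taken to pair the mice. The median of all members did not change sign for dark minus light or ZT3 minus ZT21 under the alternatives run, although that of complex II did, while that for ZT9 minus ZT3 fell just below 0 with centring on bright probe sets (-0.01), quantile normalization (-0.02), the actin covariate (-0.0036), without ZT9 replicate 1 (-0.01) and without the 3 arrays of highest actin ratio (-0.01). The low signal of 4 members kept them out of every filtered test.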

Other observations

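Sdha, Ndufs1, Atp5b and Atp5a1, 4 large subunits that were picked out after their values were seen, were lowest in ZT21 replicates 1 or 2. In replicate 1 the mean deviation of the pyruvate dehydrogenase list was -0.20 and that of the 7 neuronal markers -0.16. In replicate 2 they were -0.18 and -0.17. The mean deviation of all bright probe sets was -0.09 in replicate 1 and -0.10 in replicate 2, and a link was not tested. Other core subunits ran the other way, with Ndufv1, Ndufs7, Ndufs8 and Cyc1 at their highest mean at ZT21. For Ndufv1 the direction depended on the probe set: the chosen one differed by 0.14 between ZT21 and ZT3, and further bright ones by 0.17 and -0.04. A second probe set of Ndufs7 gave 0.16.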
